A study of Homo sapiens with 4 samples.

Results

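The far-distal regions described here are stretches of H3K27ac-marked chromatin in the human melanoma line A375 that lie more than 500 kb from any protein-coding gene start listed for them in the authors' deposited table. They were chosen by values of that table: a region was kept when none of its lines had a distance of 0, its width was under 8000 bases and its smallest distance to an assigned gene was over 500 kb. By this rule 5036 of 91107 distinct regions (5.53%) were kept. The distances and widths come from the regions as the authors called them, so they are a description and are not tested, whereas the fold changes and p-values were not used in the choice. Near the distance limit, the regions kept included those assigned to CXorf36 (500.206 kb) and WBSCR17 (500.361 kb), and the nearest left out to STPG2 (499.966 kb), ZBTB20 (499.901 kb) and NR4A2 (499.710 kb). Near the width limit, the widest kept were assigned to SOX5 (7998 bases), ATP8A2 (7989) and LSAMP (7965), and 59 regions beyond 500 kb were wider, starting with GALR1 (8086), NMBR (8113) and RAD51B (8131).

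H3K27ac, acetylation of lysine 27 of histone H3, marks active promoters and enhancers. Enhancers act on gene starts in cis and can do so over long stretches that hold no other coding gene, and developmental genes are often flanked by such gene deserts. Centromeres and the heterochromatin beside them consist largely of tandem satellite repeats, hold few or no genes and normally carry little H3K27 acetylation.

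Chromatin was immunoprecipitated with an antibody to H3K27ac and sequenced. All 4 libraries came from A375 cells kept in the same serum-containing medium, with 2 from cells given isopropanol, the vehicle, and 2 from cells given 1 mM octanoate, a medium-chain fatty acid, for 48 hours. The labels do not say whether the 2 libraries of a group came from separate cultures. The deposited table gives 1 comparison, with a mean level in the authors' normalized units, a p-value and a log2 fold change with its standard error per region, but nothing for single libraries. Sequencing depth is therefore unknown, no spread between replicates can be shown, and each ± below is the authors' standard error. The header does not name the numerator of the fold change, so values are called positive or negative and not assigned to a treatment. At gene starts, 5 of 8 melanocyte and melanoma markers had a region, with levels from 55.2 to 774 (SOX10, a neural crest and melanocyte factor, was highest). MLANA, TYR and DCT had none, and neither did any of 3 immune markers, while 3 of 4 epithelial markers had one, at 50.5 for EPCAM and 261 for a single region shared by KRT8 and KRT18.

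The start of a transcript can lie inside a far-distal region when the deposited table does not use that start. The 5 stretches below are examples that stand directly before a RefSeq start inside a far-distal region of high level. They include those of the only called region that holds a RefSeq coding start. Each is the 250 bases before the start, 5′ to 3′ on the gene's strand, from RefSeq on GRCh38.p14, the build the submitters' processing notes call hg38, with CpG dinucleotides in capitals.
NTM, chr11:131909674-131909923, plus strand: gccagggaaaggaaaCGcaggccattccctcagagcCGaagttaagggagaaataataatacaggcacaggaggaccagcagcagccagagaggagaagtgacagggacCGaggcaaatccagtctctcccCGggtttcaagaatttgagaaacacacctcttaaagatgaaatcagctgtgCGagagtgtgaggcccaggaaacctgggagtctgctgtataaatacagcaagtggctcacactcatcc
NTM, chr11:131911086-131911335, plus strand: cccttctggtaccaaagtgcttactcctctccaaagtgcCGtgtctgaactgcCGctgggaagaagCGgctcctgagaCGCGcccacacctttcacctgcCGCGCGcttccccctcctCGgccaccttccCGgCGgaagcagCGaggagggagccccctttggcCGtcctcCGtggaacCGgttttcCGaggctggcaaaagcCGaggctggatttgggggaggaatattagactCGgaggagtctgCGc
DLGAP1-AS2, chr18:3603487-3603736, plus strand: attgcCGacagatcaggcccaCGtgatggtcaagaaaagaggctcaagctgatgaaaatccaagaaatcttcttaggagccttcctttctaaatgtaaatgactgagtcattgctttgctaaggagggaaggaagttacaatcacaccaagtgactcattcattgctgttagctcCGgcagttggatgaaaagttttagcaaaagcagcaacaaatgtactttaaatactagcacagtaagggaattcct
DLGAP1-AS1, chr18:3593864-3594113, plus strand: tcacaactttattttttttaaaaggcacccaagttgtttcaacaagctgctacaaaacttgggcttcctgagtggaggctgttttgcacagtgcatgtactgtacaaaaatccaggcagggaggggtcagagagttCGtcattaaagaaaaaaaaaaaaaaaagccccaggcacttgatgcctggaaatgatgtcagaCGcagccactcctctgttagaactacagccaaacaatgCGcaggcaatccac
ROBO1, chr3:79019460-79019709, minus strand: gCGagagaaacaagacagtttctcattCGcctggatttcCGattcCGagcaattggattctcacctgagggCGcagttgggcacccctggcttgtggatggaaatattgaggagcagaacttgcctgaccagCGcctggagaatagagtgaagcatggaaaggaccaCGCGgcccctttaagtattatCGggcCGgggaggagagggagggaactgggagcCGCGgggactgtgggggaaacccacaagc

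The windows before NTM, a neural cell adhesion gene, held 5 CpG dinucleotides (51.2% G or C) and 19 (63.2%), and the window before ROBO1, the axon guidance receptor gene, held 12 (56.8%). Those before the antisense transcripts DLGAP1-AS2 and DLGAP1-AS1 held 3 each (41.2% and 44.0%). Windows not shown did not keep this contrast of coding and noncoding starts. The noncoding LOC100132249 (region level 191) had 25 CpG (70%) and LOC107984011 (level 177) had 9 (59.6%). A window of the coding gene ZBTB20 (level 144) held 4 (40.4%). In all, 104 distinct windows from 250 bases before to 50 after a RefSeq start, of 89 genes, 17 of them coding, lay wholly inside 85 far-distal regions. The counts below are over these windows. Their median CpG count of 7.5 compares with 14 over the 34796 windows of the RefSeq table, of the same length, and 37.5% against 53.0% of windows held 12 CpG or more. Their median G or C content was 51.3% against 58.7%. The 34796 windows were not chosen by H3K27ac, and windows of the same gene can overlap, as those of DLGAP1-AS6 do. The letters TGANTCA, the AP-1 motif, were found on either strand in 21 of the 104 (20.2%) and in 7.73% of all windows. The SOX letters ACAAAG were found in 19.2% against 16.1%, the M-box CATGTG in 15.4% against 11.1%, RUNX TGTGGT in 16.3% against 13.1%, ETS CCGGAA in 18.3% against 17.2%, TEAD GGAATG in 14.4% against 14.0% and the E-box CACGTG in 2.88% against 7.20%. No pair of these motifs is written alike, though matches of different motifs may share bases. These matches are letters in a window and not binding sites. The shares were not tested, no share is given for windows inside nearer H3K27ac regions, and the part of base content in them was not tested. The sequence of the far-distal regions themselves was not used here, since only windows before RefSeq starts were at hand.

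The label of a gene desert held for part of the regions only. Against the RefSeq gene table of GRCh38.p14, 1197 (23.8%) lay inside the body of a protein-coding gene, and 1098 of these (91.7%) inside the gene to which the deposited table assigned them, far from its start. Such genes numbered 194, and RAD51B (39 regions), ZFHX3 (34) and PDE4D (33) led them. A further 1015 (20.2%) lay inside RefSeq genes of other kinds, such as long noncoding RNAs and pseudogenes, and 2507 (49.8%) between genes. The remaining 317 (6.29%) lay in gene-free stretches, defined as intervals over 2 Mb with no RefSeq gene. RefSeq lists a coding start within 500 kb of 1129 regions (22.4%): for 463 of them a start of the assigned gene itself, for 476 a start of another gene of the deposited table and for 190 a start of a gene not in that table. Leaving out all regions near such starts, in coding bodies or in gene-free stretches, 3261 (64.8%) remained, called the stricter set below. These lay over 500 kb from coding starts by both annotations, but could lie near another part of a coding gene. The INHBA region chr7:41045210-41049280, for example, lay 6.39 kb from SUGCT.

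Far-distal regions were narrower and weaker than the whole set, a contrast partly fixed by the rule, which limits width and leaves out gene starts. Their median width was 674 bases against 908 over all regions, and their median level 8.68 (quartiles 4.13 to 19.7) against 12.3. Sets chosen by the same width limit were closer. At 100 to 500 kb the medians were 754 bases and 9.83, and at 10 to 100 kb 727 bases and 10.0. Strong and weak refer here to level, which is given per region and went with width. Among far-distal regions the median width was 262 bases at levels up to 5 and 4178.5 over 50. An adjusted p-value was computed for 1344 far-distal regions (26.7%), those of higher level, against 36436 of all 91107 regions. Their median distance was 795 kb. The share differed between chromosomes: 16.2% of the regions on chromosome 13 were far-distal, 13.8% on chromosome 21 and 11.8% on chromosome 4, against 1.18% on chromosome 17. The regions were assigned to 661 genes, of which 137 had 1 region each, and the 10 genes with most held 525 (10.4%). Joined where gaps were under 100 kb, they formed 1354 clusters. Of these, 532 were single regions and 111 held 10 or more, with 1742 regions (34.6%) in the latter.

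Most far-distal regions carried a positive fold change, as most regions of the table did. Their median log2 fold change was 0.23 (quartiles -0.13 to 0.53) and 3420 of 5036 (67.9%, 95% Wilson interval 66.6% to 69.2%, covering counting error only) were positive. Over all regions the median was 0.28 and 73.7% were positive. Regions at 100 to 500 kb, chosen by the same width, had a median of 0.23 with 68.6% positive, and those at 10 to 100 kb 0.26 with 71.4%. Since the whole table is shifted, a positive value does not set a region apart from the rest.

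Calls were fewer than in the table as a whole. Among the 1344 tested regions, 11 had an adjusted p-value under 0.05 by the authors' DESeq2 columns (0.818%), against a background of 1.67% over the 36436 tested regions. All 11 were positive, where the background is 1.65%, and 0 were negative, where it is 0.0192%. At an unadjusted p under 0.05, 219 of the 5036 were positive (4.35%) and 34 negative (0.675%), beside 8.68% and 0.31% of all regions. Among regions at 100 to 500 kb, 105 of 6728 tested were called (1.56%), and among those at 10 to 100 kb, 260 of 13050 (1.99%). The shares by level were as follows: over a level of 50, 4 of 334 far-distal regions were called (1.20%) against 2.65% and 3.48% in the nearer sets, and at 20 to 50, 7 of 919 (0.762%) against 1.15% and 1.33%. At 10 to 20 no region was called in the 3 sets, of 91, 438 and 790 tested. These shares were not tested against each other, because regions share libraries and neighbours. Of the 11, 9 lay at 500 to 750 kb, of 659 tested there (1.37%), and 2 at 750 to 1000 kb, of 294 (0.680%). No call lay among the 336 tested regions at 1000 to 2000 kb or the 55 beyond. With so few calls, a trend with distance was not tested.

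**Figure D1:**
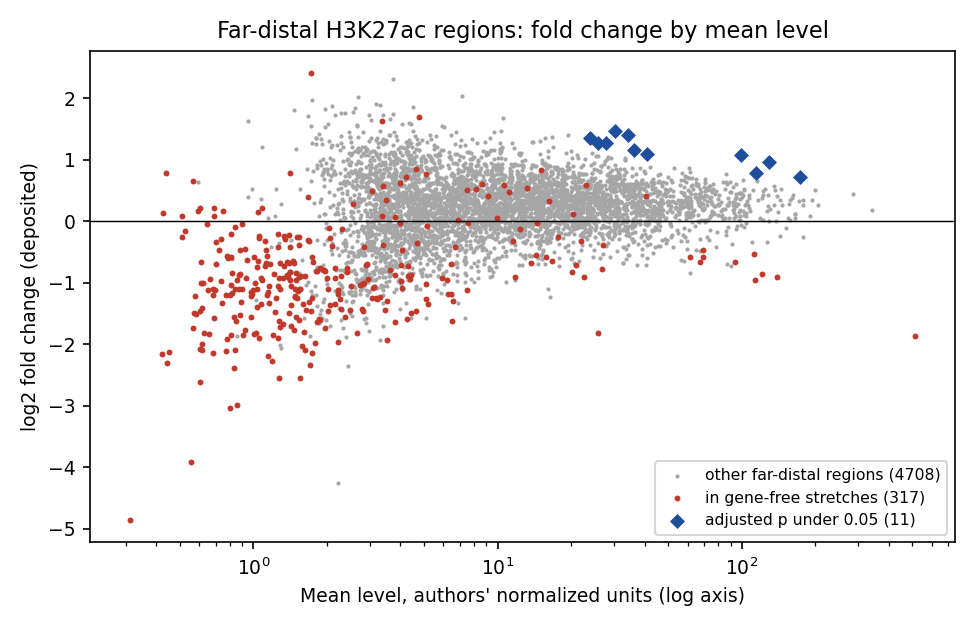
Each point is 1 far-distal region, with its mean level in the authors' normalized units on a log axis and its deposited log2 fold change. The 11 called regions (diamonds) lie at levels from 23.9 to 173 and are all positive, and the 317 regions in gene-free stretches sit mostly below 0.

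Of the called regions, 3 were assigned to genes of the adhesion and synapse list (GRM5, NTM and SLITRK1) and 1 to the signalling and matrix list (GPC5). The NCKAP5 region, in none of the lists, is described with them. Inside GRM5, the gene of a metabotropic glutamate receptor, the region at chr11:88533788-88540949 had a level of 173 and a log2 fold change of 0.72 ± 0.21 in the authors' deposited table (1.64-fold, adjusted p = 0.0460). It lay 525 kb from the assigned start and 196 kb from the nearest RefSeq coding start, that of CTSC, a cathepsin gene, with TYR, the melanocyte tyrosinase gene, 637 kb away on its other side. All 8 other regions within 100 kb were positive, with a median of 0.26, close to that of the table. The NTM region, chr11:131909486-131915432, holds the starts whose sequences are shown above and had a level of 129 and a change of 0.96 ± 0.25 in the deposited table (1.95-fold, adjusted p = 0.0163), with all 5 neighbours positive. Inside NCKAP5, chr2:132967744-132970982 had a lower level of 34.3 and a larger change of 1.39 ± 0.33 in that table (2.63-fold, adjusted p = 0.00787), and the nearest RefSeq coding start was 296 kb away. Its 4 neighbours were all positive with a median of 0.83, the highest around any called region. GPC5 encodes a glypican, a cell-surface heparan sulfate proteoglycan, and its intragenic region chr13:92157607-92159425 had 1.27 ± 0.36 at a level of 25.8 in the deposited table (adjusted p = 0.0373). Only 3 of its 6 neighbours were positive (median 0.08). SLITRK1 encodes a synaptic adhesion protein; the region chr13:83285706-83288101 lay between it and SPRY2, whose nearest end was 2945 kb away, and the deposited table gives it 1.34 ± 0.37 at a level of 23.9 (adjusted p = 0.0290).

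The other 6 called regions were assigned to KLF4, on the transcription factor list, and to genes in none of the lists. The region in the desert between KCNJ2, an inward-rectifier potassium channel gene, and SOX9, a neural crest transcription factor gene, stood 891 kb and 1048 kb from the nearest ends of these genes at chr17:71070805-71072832. Its value in the deposited table was 1.26 ± 0.34 at a level of 27.8 (adjusted p = 0.0280), and the region at the KCNJ2 start, at a level of 64.8, had 0.21 ± 0.27. The KLF4 region, chr9:108000366-108003053, 511 kb from the start of that zinc finger factor's gene, had 1.16 ± 0.32 at a level of 36.4 in that table (adjusted p = 0.0300). Here the 4 neighbours were positive too (median 0.50), and the KLF4 start, at a level of 89.5, had 0.76 ± 0.25. MATN1, a cartilage matrix gene, was assigned the region with the largest change, chr1:30189987-30192043, given as 1.46 ± 0.33 at a level of 30.1 in the deposited table (2.76-fold, adjusted p = 0.00547). It stood alone, with no other region within 100 kb, inside the RefSeq gene LOC105378617. The smallest adjusted p, 0.00277, belonged to a region in KAZN, the gene of a desmosome-associated protein, at chr1:14516005-14522332, with 1.08 ± 0.23 at a level of 98.9 in the deposited table, 76.4 kb from a RefSeq coding start. Inside BCAS3 and 147 kb from TBX2, chr17:61247126-61253325 had 0.78 ± 0.23 at a level of 114 in that table (adjusted p = 0.0493), while only 6 of 14 neighbours were positive and their median was -0.22. Its nearest RefSeq coding start was 203 kb away. The region assigned to RP11-231C18.3, chr4:53942716-53944914, had 1.09 ± 0.30 at a level of 41.0 in the deposited table (adjusted p = 0.0311), with 7 of 14 neighbours positive. RefSeq places a coding start 120 kb from it, nearer than the assigned one.

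None of the regions within 100 kb of the 11 was called. How many of these neighbours had an adjusted p-value was not counted, so no share can be set beside the background of 1.67%. The calls rest on how the table is centred and adjusted. After subtraction of the median log2 fold change of all tested regions (0.32), the adjusted p-values of the 11 were between 0.169 and 0.917. With that centring 0.124% of tested regions passed, and 3 other far-distal regions were among them, all below the median. They were assigned to CRIM1 (chr2:35460037-35464586, -0.84 ± 0.26 in the deposited table, centred adjusted p = 0.0124), to MAGI2, a synaptic scaffold gene that contains it (chr7:78148408-78153327, -0.74 ± 0.24, 0.0244), and to GPC5 (chr13:90715391-90720365, -0.70 ± 0.25, 0.0488). Adjusted over all distinct regions, 4 of the 11 stayed under 0.05: KAZN (0.00692), MATN1 (0.0137), NCKAP5 (0.0197) and NTM (0.0408).

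**Figure D2:**
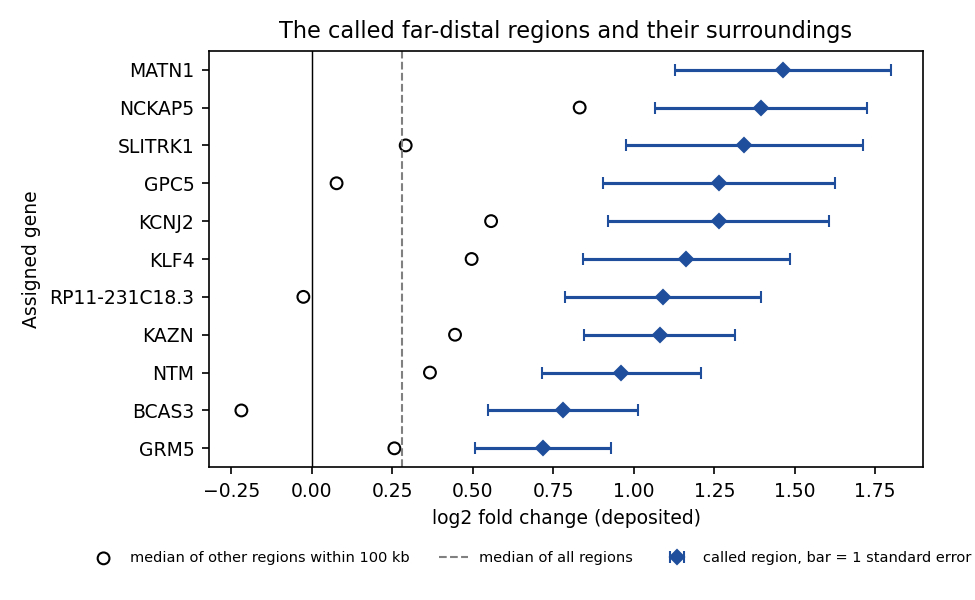
Diamonds give the deposited log2 fold change of the 11 called far-distal regions with 1 standard error, open circles the median of all other regions within 100 kb (none for MATN1), and the dashed line the median of all regions (0.28). The surrounding medians run from -0.22 (BCAS3) to 0.83 (NCKAP5), below the called region in each of the 10 cases. The called regions were picked by the p-values of their own fold changes, so this order largely follows from the choice.

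The far-distal regions of highest level mostly had values near those of the table. The 10 of highest level were 2274 to 7817 bases wide, against a median of 674 over all far-distal regions. Of the 10 of highest level, 8 were positive, with values between 0.08 and 0.50 in the deposited table, and none was called. Of these, 3 lay in DLGAP1, the gene of a postsynaptic scaffold protein: chr18:3601111-3608395 (level 287, 0.45 ± 0.21), chr18:3592152-3598460 (level 199, 0.50 ± 0.23) and chr18:3620763-3627416 (level 178, 0.34 ± 0.22). The first contains the DLGAP1-AS2 start and the second the DLGAP1-AS1 start, both shown above. Over the 23 far-distal regions of the DLGAP1 body the median was 0.50 and 20 were positive. A level of 205 was reached 1767 kb from CDH9, a cadherin gene, at chr5:28805843-28812833 (0.25 ± 0.21). The others were assigned to DEFB115 (level 193, 0.34 ± 0.21), CH17-296N19.1 (191, 0.08 ± 0.20), OR11H1 (343, 0.19 ± 0.22) and BCAS3 (178, 0.25 ± 0.21). They lay 1760, 1503, 4460 and 641 kb from the assigned starts, the last of them inside the body of BCAS3. Those with negative values were assigned to TRPM3, a cation channel gene (177, -0.27 ± 0.25), and to CWH43, described with the gene-free stretches below.

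RefSeq starts of coding transcripts lay inside 20 far-distal regions, and any RefSeq start inside 100. The 20 had a median level of 28.3 and the 80 with noncoding starts only 32.8, against 8.68 for all far-distal regions. They were also wider, with median widths of 1716.5 and 2171 bases against 674. Of the 80, 67 (83.8%) were positive, and none of the 56 tested was called. Among the 20, 14 were tested and the NTM region was the 1 called, beside the background of 1.67% of tested regions. Of the other regions with coding starts, those of highest level were in ROBO1 (chr3:79014127-79020384, level 158, 0.34 ± 0.21 in the deposited table), ZBTB20 (level 144, -0.24 ± 0.23, and level 126, 0.17 ± 0.23), ZFHX3 (94.8, 0.08 ± 0.24), ANK3 (60.4, 0.23 ± 0.28), ADGRB3 (51.7, 0.64 ± 0.30) and RABGAP1L (46.5, 0.26 ± 0.29). A RefSeq microRNA hairpin lay inside 2 regions, and the mature products are shown with the seed, bases 2 to 8, in capitals.
hsa-miR-4495: aAUGUAAAcaggcuuuuugcu
hsa-miR-3666: cAGUGCAAguguagaugccga

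The region around MIR4495, assigned to TMPO, had a level of 87.5 and -0.09 ± 0.23 in the deposited table, and that around MIR3666, inside the transcription factor gene FOXP2, had 23.7 and 0.11 ± 0.37. Neither value differed from 0 by more than its standard error, and the seeds differ.

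Regions in gene-free stretches stood apart from all other far-distal regions in the sign of their values. Of the 317, 277 were negative and 40 positive (12.6%, Wilson interval 9.41% to 16.7%), with a median log2 fold change of -0.93 (quartiles -1.37 to -0.46). Far-distal regions elsewhere had a median of 0.26 with 71.6% positive: 0.27 in coding gene bodies, 0.29 in other gene bodies and 0.24 between genes. The regions in gene-free stretches were short, with a median width of 263 bases, and weak, with a median level of 1.54. Only 20 had an adjusted p-value and none was called, beside the background of 1.67%. At an unadjusted p under 0.05, 14 (4.42%) were negative and none positive, beside 0.31% and 8.68% of all regions.

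**Figure D3:**
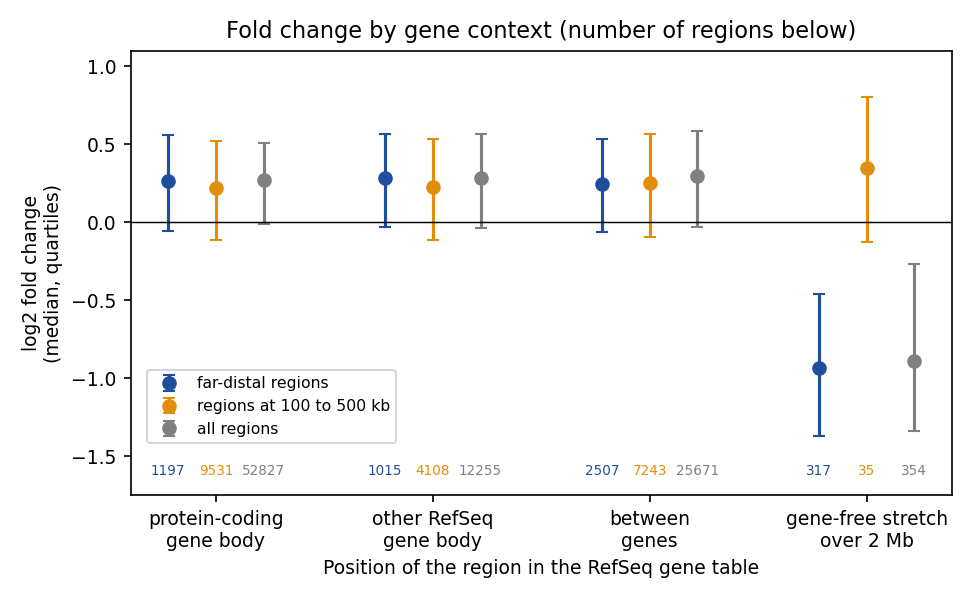
Median log2 fold change with quartiles by position in the RefSeq gene table, for far-distal regions, for regions at 100 to 500 kb and for all regions, with the number of regions under each. Far-distal regions have medians of 0.24 to 0.29 in the first 3 classes and -0.93 in gene-free stretches, where the 35 regions at 100 to 500 kb have 0.35.

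Outside these stretches, too, values were lower at low level, but the medians were above 0. Regions that were not far-distal had a median of 0.32 with 92.8% positive over a level of 50, and 0.09 with 54.5% positive up to 5. At levels up to 2, the 193 far-distal regions in gene-free stretches had a median of -1.10 with 7.25% positive, and the 671 regions of the whole table outside them had 0.08 with 52.2% positive. Within that class the first set was weaker, with a median level of 1.08 against 1.74. At levels over 2 and up to 5 the medians were -0.94 (69 regions) and 0.09 (21688 regions). Over a level of 50, where the error is smallest, all 10 regions in gene-free stretches were negative, with a median of -0.67, whereas 85.5% of the 324 other far-distal regions were positive, with a median of 0.27. At levels of 5 to 10, 10 to 20 and 20 to 50 the medians in the stretches were -0.70, -0.19 and -0.55, over 21, 14 and 10 regions.

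**Figure D4:**
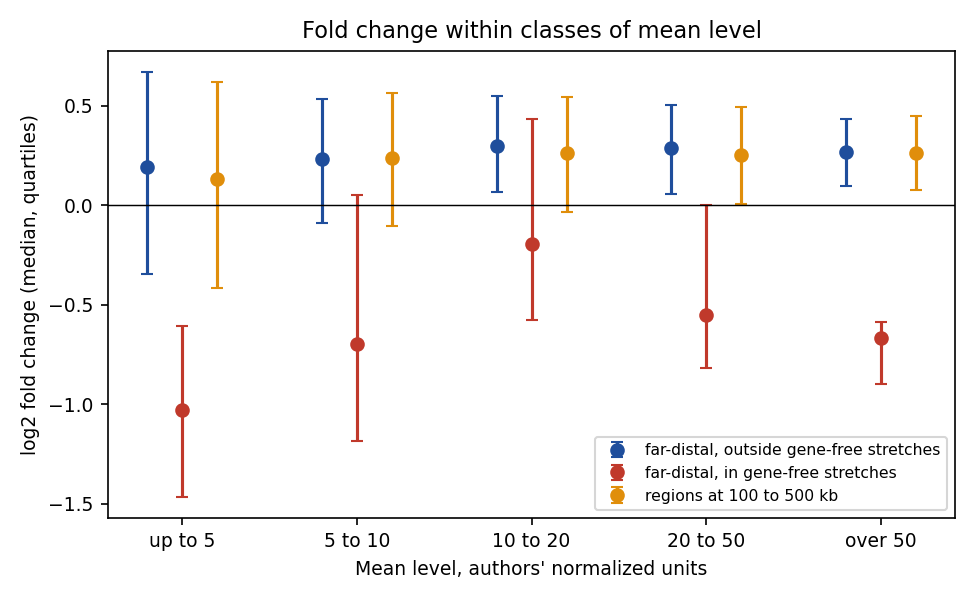
Median log2 fold change with quartiles in 5 classes of mean level, for far-distal regions in gene-free stretches, for those outside and for regions at 100 to 500 kb. The medians in the stretches are below 0 in all 5 classes, from -1.03 to -0.19, and those of the other far-distal regions above 0, from 0.19 to 0.30.

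The strongest far-distal region, assigned to CWH43 at chr4:49709090-49711962, had a level of 515 and -1.86 ± 0.84 in the authors' deposited table (p = 0.0264, adjusted p = 0.218 by the authors' DESeq2 columns). Its standard error was 4.12 times that of regions of like level. On the other side of the same stretch, the DCUN1D4 region chr4:51107160-51107603 had -1.82 ± 0.79 at a level of 25.7 in the deposited table, with an error 2.21 times the usual. Errors over 1.5 times that usual at their level were found for 3 of the 10 regions in gene-free stretches over a level of 50 and 1 of the 10 at 20 to 50, and for none of the 324 and 909 other far-distal regions of these levels. Other strong regions were assigned to EMB (chr5:49630768-49631201, level 139, -0.91 ± 0.40), to WSB1 (chr17:26619531-26620145, level 121, -0.86 ± 0.35, and chr17:26603723-26604112, level 114, -0.95 ± 0.41) and to a gene on chromosome 16 (chr16:38276129-38276515, level 112, -0.54 ± 0.25). The remaining 5 had levels of 61.6 to 94.3 and deposited values of -0.67 to -0.46. The genes named here are the nearest in the deposited table and lie at least 500 kb away.

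RefSeq left 29 gene-free stretches over 2 Mb, and 22 on 21 chromosomes held far-distal regions. Each of the 5 with 10 or more regions had a negative median. On chromosome 1 the 71 regions assigned to FAM72B had a median of -1.10 with 67 negative. On chromosome 19 the 64 regions assigned to UQCRFS1 and ZNF254 had -1.13 with 62 negative. The medians were weaker on chromosome 10 (17 regions, -0.65) and chromosome 12 (19 regions, -0.30). The exceptions were 3 stretches with 3 to 8 regions and positive medians, of 0.53 on chromosome 22, 0.41 on chromosome 9 and 0.84 on chromosome 8. The 35 regions in such stretches that lay at 100 to 500 kb from a gene start had a median of 0.35, and 3 of 11 tested were called. Short width, low level and a large standard error moved with the negative values, and their part in the result was not tested beyond the classes of level above.

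Distance from the gene start did not by itself go with lower values. The medians were 0.24 at 500 to 750 kb (2269 regions), 0.26 at 750 to 1000 kb (1078) and 0.24 at 1000 to 2000 kb (1370). Beyond 2000 kb the 319 regions had a median of -0.29, and the 167 of them outside gene-free stretches had 0.26. The 5 farthest, at 4828 to 4849 kb from OR11H1, an olfactory receptor gene, on chromosome 22, had deposited values of 0.28 to 0.78, none larger than 1.5 times its standard error.

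Loci with many far-distal regions differed in their medians. TENM3, a teneurin adhesion gene, had the most regions assigned (73, median 0.20, 50 positive). FAM72B (71) and EMB (58, median -0.97, 55 negative) followed, with all their regions in gene-free stretches. GPC5 had 54 (0.20), DEFB115, a beta-defensin gene, 52 (0.30), OR11H1 46 (0.21), ARAP2 44 (0.12), PCDH9, a protocadherin gene, 44 (0.29, 37 positive), RAD51B 42 (0.17) and UQCRFS1 41 (-0.90). The largest clusters, 6 because the last place was tied, were those of RAD51B, a recombination repair gene (42 regions over 346 kb), of EMB (40 over 531 kb, 39 negative, median -0.91), of INHBA and SUGCT (37, 30 positive, 0.33), of ZFHX3 (34, 21 positive, 0.05) and, with 27 each, of IGFBP3 and TNS3 (0.12) and of PSAT1 and TLE4 (0.00).

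Within coding gene bodies the members of 1 gene could lean either way. PDE4D, a cyclic AMP phosphodiesterase gene, had 28 of 33 positive with a median of 0.34, and CNTNAP2, a neurexin-family gene, 25 of 29 with 0.40. ROBO1 had 13 of 23 negative with a median of -0.06, although its region with a coding start was positive. MACROD2 had 14 of 25 positive with 0.09. The next 2 clusters are named here after their values were seen. The 23 regions between ZNF608 and GRAMD3 on chromosome 5 had 20 negative and a median of -0.19, outside any gene-free stretch. The cluster of 23 regions assigned to TMEM132C on chromosome 12 had 21 positive and a median of 0.43. Of these, 9 lay in a coding gene body, that of LOC107984449. No region of either was called. Regions of 1 locus share their surroundings and their libraries, so these counts are not replicates.

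**Figure D5:**
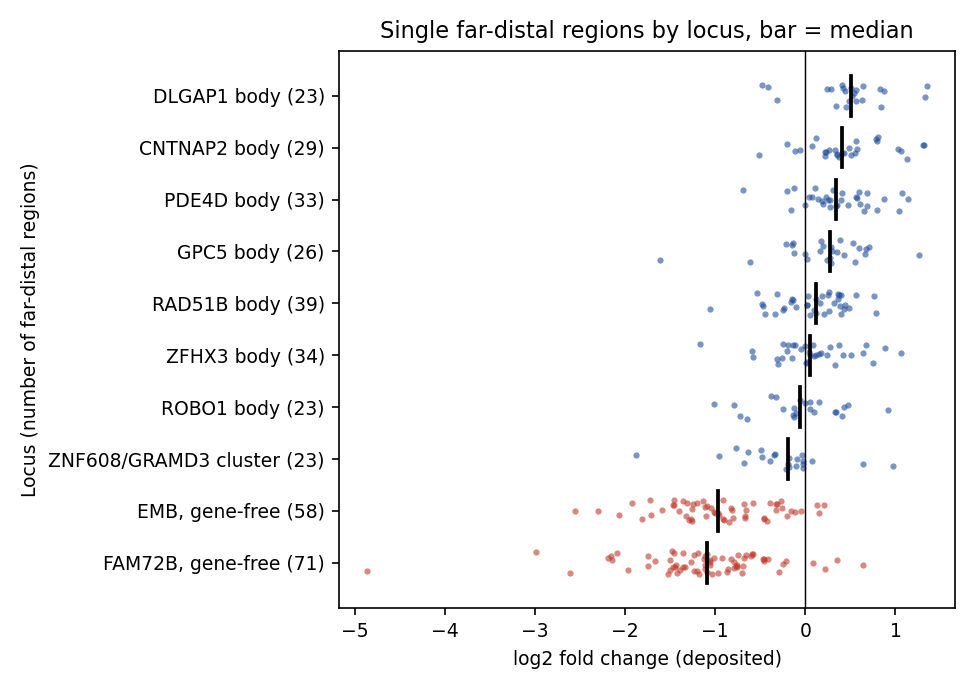
Deposited log2 fold change of each far-distal region (points, spread vertically for sight) at 10 loci, with the median as a bar and the number of regions in parentheses. Medians run from 0.50 in DLGAP1 to -1.10 in the gene-free stretch assigned to FAM72B, and points lie on both sides of 0 at every locus.

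Grouped by the function of the assigned gene, 246 far-distal regions belonged to 33 of 93 listed developmental transcription factor genes, 979 to 66 of 95 adhesion and synapse genes and 186 to 20 of 94 signalling and matrix genes. Their medians were 0.20, 0.29 and 0.20, with 69.5%, 75.6% and 71.0% positive, against 0.22 and 65.6% for the 3625 regions in none of the lists and 0.28 and 73.7% for the table. Calls numbered 1 of 88 tested (KLF4), 3 of 264 (NTM, GRM5 and SLITRK1) and 1 of 52 (GPC5), and 6 of 940 in none of the lists, beside the background of 1.67%. Unadjusted p-values under 0.05 were found for 13 positive and 0 negative regions of transcription factor genes, 40 and 4 of adhesion and synapse genes, and 9 and 1 of signalling and matrix genes. Of the regions in gene-free stretches, 1 (EPHA3, an ephrin receptor gene) was assigned to a listed gene.

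Among transcription factor genes the highest levels were in ZFHX3, a zinc finger homeobox gene (level 141, 0.15 ± 0.24, and level 139, 0.00 ± 0.23 in the deposited table), and in SOX5, a neural crest factor gene (129, -0.01 ± 0.23). The highest among adhesion and synapse genes were the CDH9 and GRM5 regions described above and 1 in IL1RAPL1, a synaptic organizer gene (172, 0.33 ± 0.22). Among signalling and matrix genes they were 2 near GPC5 (88.7, 0.05 ± 0.25, and 87.4, -0.70 ± 0.25) and 1 near INHBA, which encodes an activin subunit (85.4, 0.53 ± 0.25). The strongest regions of the lists thus had values from -0.70 to 0.72.

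At a level of at least 10 the most positive regions without a call were assigned to OLFM4 (1.68 ± 0.59 in the deposited table), CNTN5, a contactin gene (1.47 ± 0.54), CLINT1 (1.40 ± 0.42), SDK1, a sidekick adhesion gene (1.37 ± 0.45), and NRXN3, a neurexin gene (1.35 ± 0.44). The adjusted p of the CLINT1 region exceeded the threshold by less than any other member's, and no adjusted p-value was computed for the other 4. The most negative outside gene-free stretches were 2 neighbouring regions 520 to 524 kb from the KIF20B start on chromosome 10 (-1.24 ± 0.42 and -1.11 ± 0.42) and 1 assigned to BRINP1 (-0.98 ± 0.49). Below a level of 10 the values reached further, down to -4.86 ± 3.37 for a FAM72B region in a gene-free stretch at a level of 0.311, where the error is most of the value.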

How the data were processed

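The series holds H3K27ac chromatin immunoprecipitation sequencing of A375 cells, with 2 vehicle and 2 octanoate libraries. Only a table of the authors' own comparison was used. The submitters' processing notes name hg38, Trim Galore, cutadapt, FastQC, Bowtie2, Picard, MACS2, featureCounts, DESeq2 and bedtools 2.29.1, with no role or order. Whether regions were called per library or on pooled libraries, and with which settings, is not given in the sources used here. Per the file headers, which use the column names of DESeq2, the table gives the mean level of a region as a normalized signal, the log2 fold change with its standard error on the log2 scale, the statistic as a score, the p-value and adjusted p-value, and the signed distance in bases to an assigned protein-coding gene. An adjusted p-value of 1 in the deposited table was read as not computed. Benjamini-Hochberg adjustment over the remaining 36436 regions gave the deposited values back to within 1.58e-14.

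The 95312 lines were merged to 91107 regions by stripping the suffix of repeated regions. Coordinates are printed as deposited, and whether they count from 0 or 1 is not stated. Gene bodies, starts, neighbours and gene-free stretches come from the RefSeq table of GRCh38.p14. For 88.6% of 3790 far-distal regions whose gene matched, the deposited distance was within 5 kb of that to a RefSeq start of the gene. The usual error at a level is the median standard error in its class, with all regions cut into 200 equal classes of level. A call is a deposited adjusted p-value under 0.05. Centring subtracted the median of tested regions, kept the authors' standard errors and recomputed normal p-values.

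No test across libraries was possible, because the number of columns of single libraries is 0, so the edgeR fit considered in the design was not run. Medians and counts over regions are descriptions. Intervals cover counting error only. The regions, gene lists and settings were chosen with earlier results of these data known. Named regions were all calls, the 10 of highest level, the 5 most positive and most negative at a level of at least 10, the 5 farthest, the 3 on each side of each limit, the 5 largest clusters, the 10 genes with most regions and the 3 strongest of each list. Strong regions in gene-free stretches, regions with RefSeq starts and those called after centring were added after the values were seen. Values of some single regions and of 1 stretch are not reported here. The planned count of motifs in the middle of each region was not run. Alternatives are described in the closing section. Python 3.11.15, pandas 2.3.3, numpy 2.4.6, scipy 1.17.1 and matplotlib 3.10.9 were used, and the procedures were tested on simulated data.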

Additional observations from a re-analysis of the deposited data

How the results depend on the processing

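No paired analysis was possible because single libraries have no values in the file, and for the same reason no library was left out and no other normalization was tried. The 11 calls became 3 at an adjusted p under 0.01, 4 with adjustment over all distinct regions, 3 (none of the 11) after centring, 2 beyond 750 kb, 0 beyond 1 Mb, 1 at widths under 2000 bases, 2 without regions within 10 kb of any RefSeq gene and, chosen after seeing the data, 4 in the stricter set of 3261 regions. Calls numbered 8 at an absolute log2 fold change of at least 1, 15 without the width limit and 11 without gene-free stretches. The median of 0.23 was 0.28 at a level of at least 10, 0.27 over tested regions, 0.20 beyond 1 Mb, 0.17 without regions within 10 kb of a RefSeq gene, 0.26 without gene-free stretches and 0.25 in the stricter set. With each chromosome left out in turn it ran from 0.22 to 0.24. The 67.9% positive became 79.1% at a level of at least 10, 80.5% over tested regions, 63.4% beyond 1 Mb and 71.6% without gene-free stretches, and reversed to 41.7% above the median after centring. That centre, 0.32, is the median of tested regions and lies above the 0.28 of all regions. Most regions of the whole table therefore also fall below it, and the reversal is not particular to far-distal regions. The 5036 regions became 2767 beyond 750 kb, 1689 beyond 1 Mb and 3261 in the stricter set. In gene-free stretches the median of -0.93 was -0.58 at a level of at least 5 (55 regions), -0.57 at 10 or more (34 regions) and -0.70 with regions within 1 Mb of a stretch (445 regions), and between -0.95 and -0.91 with each chromosome left out. All settings for gene-free stretches were chosen after seeing the data. Fewer regions or tests enter the stricter settings, and any other cause was not tested. Level limits the calls: no region at or below a level of 10 had an adjusted p-value.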
